A study of Mus musculus with 24 samples.

Results

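The genes described here are those of the tumour necrosis factor (TNF) ligand and receptor superfamilies whose mouse symbols start with Tnfsf (ligands) or Tnfrsf (receptors), and what was measured is how open the chromatin is around them. A peak was taken as belonging to such a gene where the authors' differential table names the gene for it. A peak of the count matrix that the table leaves out was taken where the nearest transcription start site (TSS) listed there, within 50 kb of the middle of the peak, was that of such a gene. This gave 283 of the 144411 peaks, 179 through the table and 104 by distance, at 30 genes: 123 peaks at 11 ligand genes and 160 peaks at 19 receptor genes. The peaks are 122 to 2102 bases long, with a median of 454. A low-count filter left 268 of them in the tests and removed 15. Being nearest to a TSS leaves the gene that a peak controls unknown. At 7 of the 104 peaks taken by distance, a RefSeq gene that the table does not list lies nearer, by its body or either end, than that TSS. The 179 peaks taken through the table were not checked for this.

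Accessibility was read by ATAC-seq, in which the Tn5 transposase cuts open DNA and tags it for sequencing, in macrophages grown for 5 days from the bone marrow of male C57BL/6 mice aged 8 to 10 weeks. Wild-type (WT) cells were LysM-Cre+/+; GRIP1wt/wt and knockout (KO) cells were LysM-Cre+/+; GRIP1fl/fl, so all groups carry the myeloid Cre driver LysM-Cre. GRIP1, encoded by Ncoa2, is a coactivator that binds the glucocorticoid receptor and other nuclear receptors. Cells of both genotypes were given vehicle, the glucocorticoid dexamethasone (Dex, 100 nM) or the cytokine interleukin 4 (IL4, 10 ng/ml), with 4 libraries in each of the 6 groups. The titles give 24 h for every library, whereas the treatment label of the vehicle libraries gives 25 h. Nothing in the labels ties a library to a mouse or culture of its own, and the p-values therefore cover the spread among libraries, which may be technical.

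TNF superfamily ligands are trimeric proteins, most of them bound to the cell membrane, that cluster receptors on the same or a neighbouring cell. Receptors with a death domain can start apoptosis, receptors that bind TRAF adaptors turn on NF-kappaB and MAP kinases, and decoy receptors bind a ligand without passing on the signal. Macrophages use the family to give costimulatory signals to T cells (Tnfsf4, Tnfsf8, Tnfsf9, Tnfsf15, Tnfsf18), to keep B cells alive (Tnfsf13, Tnfsf13b), to answer TNF itself (Tnfrsf1a, Tnfrsf1b) and, through Tnfrsf11a, to become osteoclasts.

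The libraries held 5820149 to 21939330 counts in peaks, and 1 count was worth 0.0467 to 0.185 CPM (counts relative to the TMM-scaled library total), the unit of all levels below. WT Dex replicate 2 was the shallowest. Without it 24 of the family's peaks rose with Dex in WT and 26 fell. The promoters of all 9 macrophage markers searched (Csf1r, Adgre1, Itgam and others) had a tested peak, with a summed level of 241 to 317 CPM in the 24 libraries. Promoter peaks were tested for 1 of 6 T and NK cell markers (summed level 1.55 to 4.07 CPM; Cd3e, Cd3g, Cd3d, Ncr1 and Lck had none), 2 of 5 B cell markers (2.79 to 7.06 CPM; Cd79a, Ms4a1 and Pax5 had none), 2 of 5 neutrophil markers (23.4 to 46.5 CPM; Ly6g, Elane and Mpo had none) and 3 of 4 dendritic cell markers (23.5 to 34.4 CPM; Xcr1 had none). In a bulk sample, fewer cells with an open site and less signal per cell cannot be told apart. At Ncoa2, the promoter peak held 71.3 to 101 CPM in WT and 72.0 to 94.9 CPM in KO libraries. A promoter peak does not test the deletion, and the labels do not say which part of the gene is floxed.

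Sequence was at hand for promoters, not for distal peaks. RefSeq promoters (build GRCm38.p6) matched 24 of the 30 genes with 27 start sites, and the 250 bases before each start were searched on both strands. The 5 printed here lie wholly or in part in peaks whose accessibility is described below. Capitals mark matches to the motifs searched, and each sequence is on the strand of its gene. The start inside Tnfrsf9 (chr4:150927749-150927998, + strand) lies in a peak that fell with Dex and with IL4, and it holds a pair of overlapping kappaB matches and an AP-1 match. The Tnfsf18 promoter (chr1:161494407-161494656, + strand) lies in a peak that rose with IL4 and holds a PU.1 match. The promoters of Tnfrsf1a (chr6:125349473-125349722, + strand) and Tnfrsf11a (chr1:105780473-105780722, + strand) lie in peaks that rose with Dex and fell with IL4, and both hold kappaB matches. Of the 250 bases of the Tnfsfm13 promoter (chr11:69696099-69696348, - strand), 179 are in a peak that rose with both treatments. Its AGAACA match, the core of the glucocorticoid receptor's site, lies 228 to 223 bases before the start, outside that peak.
Tnfrsf9: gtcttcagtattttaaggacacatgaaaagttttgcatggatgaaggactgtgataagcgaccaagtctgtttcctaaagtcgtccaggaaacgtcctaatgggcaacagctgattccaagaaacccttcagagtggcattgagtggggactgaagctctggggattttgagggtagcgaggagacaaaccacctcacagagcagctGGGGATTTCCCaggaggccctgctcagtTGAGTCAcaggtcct
Tnfsf18: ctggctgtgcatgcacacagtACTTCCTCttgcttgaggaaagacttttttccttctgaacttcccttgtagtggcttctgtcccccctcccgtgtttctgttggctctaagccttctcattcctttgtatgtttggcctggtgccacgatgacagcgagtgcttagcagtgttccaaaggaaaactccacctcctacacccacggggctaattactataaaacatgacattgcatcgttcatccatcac
Tnfrsf1a: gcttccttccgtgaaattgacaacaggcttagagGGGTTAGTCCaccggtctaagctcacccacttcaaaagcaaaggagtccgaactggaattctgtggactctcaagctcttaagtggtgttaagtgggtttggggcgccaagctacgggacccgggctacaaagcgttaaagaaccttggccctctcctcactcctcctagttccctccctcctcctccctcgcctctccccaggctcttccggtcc
Tnfrsf11a: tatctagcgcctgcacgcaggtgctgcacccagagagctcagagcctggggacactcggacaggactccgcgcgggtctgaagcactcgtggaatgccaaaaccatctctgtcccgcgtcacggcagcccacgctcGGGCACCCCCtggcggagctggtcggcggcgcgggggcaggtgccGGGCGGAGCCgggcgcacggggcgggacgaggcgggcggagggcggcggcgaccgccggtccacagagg
Tnfsfm13: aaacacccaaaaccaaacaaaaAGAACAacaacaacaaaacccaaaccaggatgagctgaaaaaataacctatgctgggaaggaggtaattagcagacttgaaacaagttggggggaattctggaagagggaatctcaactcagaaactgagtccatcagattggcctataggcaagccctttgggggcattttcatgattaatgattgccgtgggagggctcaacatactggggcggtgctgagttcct

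The kappaB site, bound by NF-kappaB, was searched as GGG and CC with 5 bases of any kind between them and was in 13 of the family's 27 promoters (48.1%), beside 45.8% of all 32851 RefSeq promoters of that length. The AP-1 site TGANTCA was in 5 (18.5%; Tnfrsf8, Tnfrsf9, Tnfsf13, Tnfsf13b and Tnfsf14) beside 6.75%. The STAT6 site (TTC and GAA, 4 bases apart), bound by the factor that IL4 activates, was in 2 (7.41%) beside 5.85%. Both are overlapping promoter windows of Tnfsf13b that hold the same single site. The PU.1 site GAGGAAGT was in 1 (3.7%) beside 2.44%. The shorter site AGAACA was in 1 (3.7%) beside 16.1%, and the full glucocorticoid response element (AGAACA and TGTTCT, 3 bases apart) was in 0 beside 0.00913%. A match is a string of letters and not a bound site.

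In WT macrophages peaks of the family moved in both directions with Dex, and with IL4 more rose than fell, an excess that lay at peaks over 10 kb from a TSS. Among all tested peaks, too, rises with IL4 outnumbered falls at 10 to 50 kb (20.6% and 12.7%) and over 50 kb (30.1% and 13.4%). Of the 268 tested peaks, 26 rose with Dex and 30 fell, beside 8.56% and 8.08% of all 130103 tested peaks, so that 20.9% of the family's peaks changed, beside 16.6% of all. With IL4, 68 rose and 43 fell, beside 19.3% and 16.1% of all peaks, a change at 41.4% of the family's peaks beside 35.4% of all. A peak rose or fell here if edgeR's quasi-likelihood test gave a Benjamini-Hochberg adjusted p below 0.05 over all tested peaks, and all adjusted p-values below come from that fit. The median log2 fold change over the family was -0.03 with Dex and 0.06 with IL4, and over all tested peaks 0.01 and -0.01. The comparisons share the 4 WT vehicle libraries, so their values are given side by side. By gene, 17 of the 30 genes had a peak that rose with Dex and 14 had 1 that fell, whereas 20 had a peak that rose with IL4 and 18 had 1 that fell. The same shares over all genes were not computed. Among peaks within 10 kb of a TSS, 19 rose and 21 fell with IL4, and 11 rose and 10 fell with Dex. Of all tested peaks, 6.29% rose and 43.0% fell with IL4 within 1 kb of a TSS, and 19.2% and 15.5% at 1 to 10 kb. With Dex these shares were 8.87% and 3.12% within 1 kb, and 9.29% and 7.59% at 1 to 10 kb. Scaling by total counts gave 19 risen and 38 fallen peaks with Dex, beside 8586 and 12807 of all 130103 tested peaks.

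Ligand and receptor genes differed in these counts. At ligand genes 37 of 117 tested peaks rose with IL4 (31.6%) and 16 fell (13.7%), with a median log2 fold change of 0.18. At receptor genes 31 of 151 rose (20.5%) and 27 fell (17.9%), with a median of 0.01. With Dex, 9 ligand peaks rose and 16 fell, and 17 receptor peaks rose and 14 fell. The difference between ligands and receptors was not tested.

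**Figure D1:**
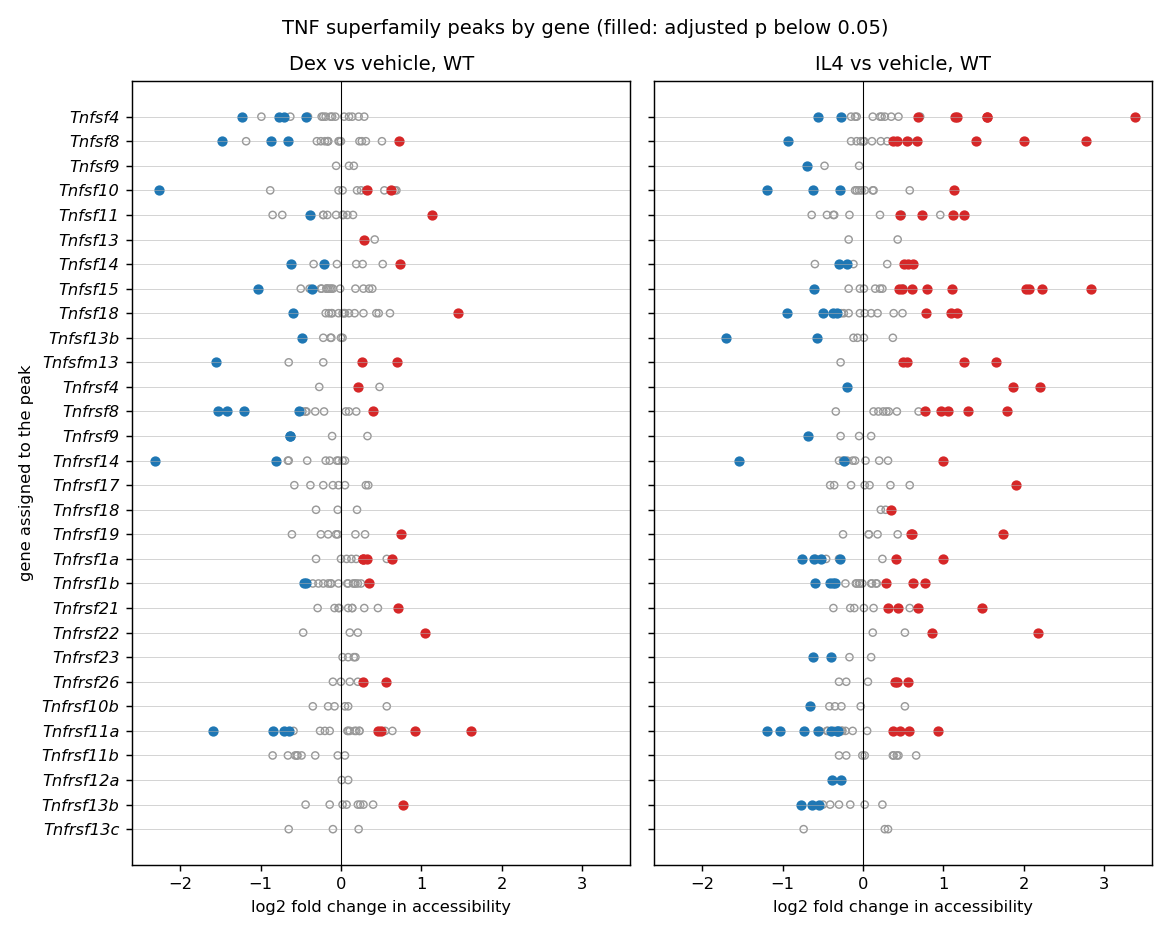
Log2 fold change in accessibility in WT macrophages (x axis) for each of the 268 tested peaks, in a row per gene, ligands first; the left panel shows Dex against vehicle and the right panel IL4 against vehicle. Filled red points rose and filled blue points fell (adjusted p below 0.05), and open points were not called; the right panel holds 68 red points, the farthest at Tnfsf4 (3.38), and the left panel 26.

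The 2 treatments were compared directly in WT, without going through the vehicle libraries. The 4 IL4 libraries were higher than the 4 Dex libraries at 85 of the family's peaks and lower at 61, beside 23.4% and 21.7% of all tested peaks. Of the family's peaks 54.5% differed, beside 45.1% of all. Each of the 30 genes had at least 1 such peak, but the share of all genes with such a peak was not computed. Among peaks within 10 kb of a TSS, 25 were higher and 29 lower. Scaling by total counts gave 96 higher and 40 lower.

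Tnfsf4, the ligand that costimulates T cells through Tnfrsf4, held the family's largest rise with IL4. A peak 26.0 kb upstream of its TSS (chr1:161369202-161369660) held 0.384, 1.01, 0.748 and 1.03 CPM in the WT vehicle libraries, 0.563, 0.369, 0.41 and 0.513 CPM with Dex and 6.78, 7.32, 9.28 and 8.85 CPM with IL4. All IL4 libraries lay far above the others, which overlapped. The log2 fold change was 3.38 ± 0.21 (SE, adjusted p = 6.69e-25) with IL4 and -0.63 ± 0.37 (adjusted p = 0.277) with Dex. In KO cells the same peak went from 1.08 ± 0.298 CPM (SD, n = 4) to 5.87 ± 0.308 CPM with IL4, a log2 fold change of 2.43 ± 0.21.

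Upstream of the same gene a peak 18.8 kb from the TSS (chr1:161376045-161377227) changed with Dex instead. Its WT vehicle libraries held 9.45, 8.27, 8.33 and 5.57 CPM, the Dex libraries 3.8, 1.85, 3.36 and 3.59 CPM and the IL4 libraries 10.3, 10.9, 9.07 and 7.73 CPM. Every Dex library lay below every vehicle library, and the vehicle and IL4 libraries overlapped. The log2 fold change was -1.23 ± 0.15 with Dex (adjusted p = 6.91e-10) and 0.27 ± 0.13 with IL4 (adjusted p = 0.105). In all, 6 of the 18 tested Tnfsf4 peaks rose with IL4 and 2 fell, and 4 fell with Dex. The peak at the Tnfsf4 promoter held 2.7 ± 0.318 CPM with vehicle, 2.91 ± 0.56 CPM with Dex and 3.68 ± 0.303 CPM with IL4, and passed neither test.

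Tnfsf15, a T cell costimulator, rose with IL4 at 9 of 17 tested peaks and fell at 1. The peak 27.5 kb upstream (chr4:63772317-63772906) held 4.07, 2.91, 3.74 and 3.81 CPM in WT vehicle libraries, 2.67, 1.85, 1.56 and 1.31 CPM with Dex and 17.1, 16.2, 19.5 and 16.8 CPM with IL4. The 3 groups did not overlap. It rose by a log2 fold change of 2.23 ± 0.14 with IL4 (adjusted p = 8.63e-26) and fell by 1.03 ± 0.20 on the log2 scale with Dex (adjusted p = 4.63e-05), so that IL4 exceeded Dex by a log2 fold change of 3.26 ± 0.15. A peak 16.9 kb downstream of the TSS (chr4:63728045-63728332) went from 0.342 ± 0.288 to 2.7 ± 0.529 CPM with IL4, a log2 fold change of 2.83 ± 0.36. The promoter peak of Tnfsf15 passed neither test, with log2 fold changes of -0.14 ± 0.14 for Dex and 0.21 ± 0.14 for IL4.

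Tnfsf8 and its receptor Tnfrsf8, which pair on activated lymphocytes, lie on chromosome 4, and both had more peaks that rose than fell with IL4. Of 18 tested Tnfsf8 peaks, 7 rose and 1 fell with IL4, and 1 rose and 3 fell with Dex. The steepest rise with IL4 was 13.5 kb upstream (chr4:63874590-63874902), where WT vehicle libraries held 0.23, 0.447, 0.107 and 0.206 CPM and IL4 libraries 2.23, 1.76, 1.33 and 1.49 CPM. That is 1 to 4 counts in each vehicle library, and the log2 fold change was 2.77 ± 0.41. Dex libraries at that peak held 0.352, 0.185, 0.164 and 0.513 CPM, which overlapped with the vehicle values. The promoter peak of Tnfsf8 rose with IL4 from 3.4 ± 0.467 to 5.09 ± 0.558 CPM (log2 fold change 0.55 ± 0.16). A longer peak 38.4 kb upstream rose with Dex, from 14.1 ± 1.27 to 23.5 ± 2.74 CPM (log2 fold change 0.72 ± 0.09), and less with IL4, to 18.1 ± 0.741 CPM (0.37 ± 0.10).

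At the Tnfrsf8 receptor gene Dex and IL4 moved the same peaks in opposite directions. The peak 8.4 kb upstream (chr4:145323172-145323973) held 3.61, 4.25, 4.59 and 3.4 CPM with vehicle, 1.69, 0.554, 1.56 and 2.1 CPM with Dex and 14.1, 14.2, 13.9 and 12.3 CPM with IL4, and the groups did not overlap. It fell by 1.21 ± 0.22 on the log2 scale with Dex (adjusted p = 1.35e-05) and rose by a log2 fold change of 1.79 ± 0.15 with IL4 (adjusted p = 2.07e-16). The peak 14.8 kb upstream went from 2.25 ± 0.461 to 0.873 ± 0.294 CPM with Dex and to 4.72 ± 1.14 CPM with IL4, log2 fold changes of -1.53 ± 0.27 and 1.06 ± 0.19. Of 13 tested Tnfrsf8 peaks, 5 rose with IL4, whereas 1 rose with Dex and 4 fell. The Tnfrsf8 promoter peak was low in every group, at 1.52 ± 0.294, 1.15 ± 0.233 and 1.15 ± 0.317 CPM, and passed neither test.

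**Figure D2:**
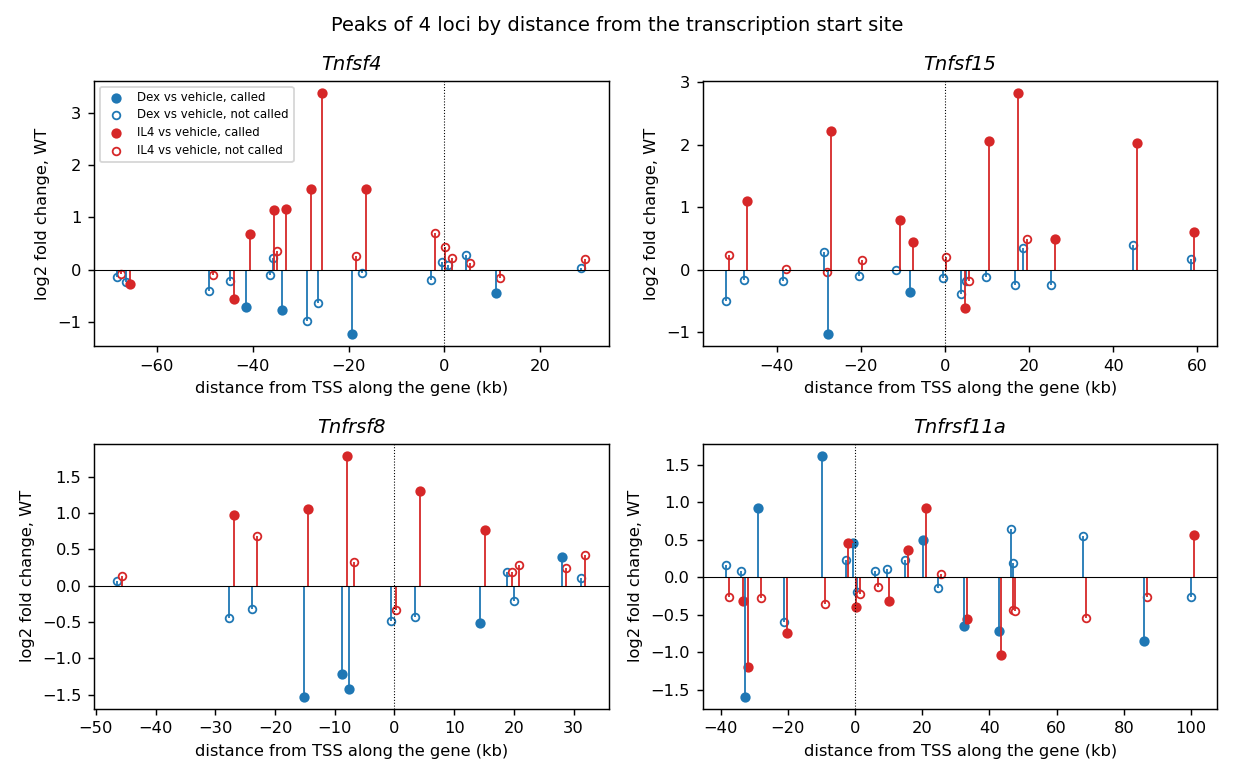
Log2 fold change in WT (y axis) of the tested peaks at Tnfsf4, Tnfsf15, Tnfrsf8 and Tnfrsf11a against their distance from the TSS along the gene in kb (x axis, upstream negative; points are moved 0.4 kb to either side to show both treatments). Filled points were called and open points were not; IL4 (red) stands above 0 at the Tnfsf4, Tnfsf15 and Tnfrsf8 upstream peaks that Dex (blue) left or lowered, and the order is turned at the Tnfrsf11a peak 9.4 kb upstream.

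Other T cell costimulators moved less uniformly. Tnfsf18, the ligand of Tnfrsf18, had 16 tested peaks, of which 3 rose and 4 fell with IL4 in WT and 2 rose and 7 fell in KO. It rose with IL4 at its promoter peak (chr1:161494390-161494686), whose sequence is printed above, from 1.77, 1.34, 1.92 and 1.75 CPM to 4.38, 3.57, 3.87 and 2.7 CPM (log2 fold change 1.09 ± 0.21). Its peak 2.4 kb upstream rose with Dex, from 0.525 ± 0.261 to 1.43 ± 0.293 CPM (1.46 ± 0.36), and held 0.487 ± 0.302 CPM with IL4. The promoter peak of Tnfsf9, the ligand of Tnfrsf9, fell with IL4 from 26.9, 27.7, 25.6 and 24.2 CPM to 16.1, 16.6, 15.6 and 15.9 CPM, with no overlap, by 0.70 ± 0.08 on the log2 scale (adjusted p = 1.39e-11). With Dex it held 29.0 ± 1.28 CPM and was not called (adjusted p = 0.149). Tnfsf14, the ligand of Tnfrsf14, had 8 tested peaks. In WT, 3 of these rose and 2 fell with IL4, and 1 rose and 2 fell with Dex. Tnfsf14 fell at its promoter with IL4 from 19.8 ± 1.38 to 16 ± 1.02 CPM (log2 fold change -0.30 ± 0.09), a call lost with offsets fitted by loess (-0.19). A peak 1.3 kb upstream of it rose with Dex from 4.26 ± 0.649 to 6.89 ± 1.1 CPM (0.74 ± 0.15).

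The B cell survival ligands differed from each other. Tnfsf13b, which keeps B cells alive through Tnfrsf13c, fell with IL4 at a peak 26.9 kb downstream of its TSS (chr8:10033103-10033902), from 16, 13.7, 14.1 and 9.58 CPM to 4.79, 4.21, 3.36 and 4.0 CPM. Every IL4 library lay below every vehicle library, and the log2 fold change was -1.70 ± 0.18 (adjusted p = 1.68e-09). Dex libraries held 14.1, 8.68, 8.7 and 6.95 CPM there, overlapping with vehicle, with a log2 fold change of -0.49 ± 0.16 (adjusted p = 0.0275). The Tnfsf13b promoter peak stood at 24.0 ± 1.72, 23.9 ± 2.25 and 23.0 ± 2.77 CPM with vehicle, Dex and IL4, and passed neither test.

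Tnfsf13, which acts through Tnfrsf13b and Tnfrsf17, rose with Dex at its promoter, from 18.4 ± 1.18 to 22.8 ± 1.49 CPM (log2 fold change 0.29 ± 0.08). Tnfsfm13, the read-through gene that joins Tnfsf12 to Tnfsf13, shares this stretch of chromosome 11, so that a peak between the TSSs cannot be given to 1 of them alone. Its promoter peak rose with Dex from 18.2 ± 1.77 to 21.9 ± 2.37 CPM (0.26 ± 0.09) and with IL4 to 25.6 ± 1.16 CPM (0.50 ± 0.09). The Dex call at that promoter was lost with total-count scaling (0.21), with loess offsets (0.19), with DESeq2, and without WT vehicle replicate 1 (0.19) or any of WT Dex replicates 2, 3 and 4 (0.23 to 0.24). A peak 14.1 kb upstream of it (chr11:69709974-69710447) fell with Dex, from 1.1 ± 0.271 to 0.368 ± 0.305 CPM, and rose with IL4, to 3.39 ± 0.578 CPM (log2 fold changes -1.56 ± 0.39 and 1.65 ± 0.25).

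Tnfsf10, which kills cells through the death receptor Tnfrsf10b, had 12 tested peaks. In WT, 2 of these rose and 1 fell with Dex, and 1 rose and 3 fell with IL4. The peak 9.7 kb downstream of its TSS (chr3:27326607-27326861) fell with both. WT vehicle libraries held 1.92, 1.79, 0.854 and 0.928 CPM, Dex libraries 0.563, 0.185, 0.328 and 0.0933 CPM and IL4 libraries 0.992, 0.41, 0.408 and 0.652 CPM. Dex libraries lay below all vehicle libraries, and IL4 libraries overlapped with them. The log2 fold changes were -2.26 ± 0.42 with Dex and -1.20 ± 0.36 with IL4, the latter a call lost without WT vehicle replicate 1 (-0.95). Its promoter peak passed neither test.

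Tnfsf11, the osteoclast differentiation factor that binds Tnfrsf11a, rose with Dex at 1 of 12 tested peaks and fell at 1, and rose with IL4 at 4. The peak 90.1 kb upstream (chr14:78397887-78398353) went from 1.78 ± 0.524 to 3.83 ± 0.264 CPM with Dex (log2 fold change 1.13 ± 0.20) and to 2.9 ± 0.419 CPM with IL4 (0.73 ± 0.22).

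Among the receptors with a death domain, Tnfrsf1a, the main receptor for TNF, rose with Dex and fell with IL4 at its promoter (chr6:125349194-125350925). The WT vehicle libraries held 21.3, 21.1, 19.9 and 21.0 CPM, the Dex libraries 25.2, 30.3, 24.6 and 25.5 CPM and the IL4 libraries 15.0, 17.0, 11.2 and 14.1 CPM. The 3 groups did not overlap, and the log2 fold changes were 0.32 ± 0.09 (adjusted p = 0.00563) and -0.52 ± 0.09 (adjusted p = 3.48e-06). A short peak 3.3 kb downstream of its TSS rose with IL4, from 2.88 ± 0.29 to 5.71 ± 1.15 CPM (log2 fold change 1.00 ± 0.18). Tnfrsf21 rose with IL4 at a peak 13.8 kb from its TSS (0.901 ± 0.301 to 2.57 ± 0.719 CPM, 1.48 ± 0.27) and with Dex at a peak 19.8 kb away (5.9 ± 0.573 to 9.85 ± 1.55 CPM, 0.71 ± 0.14). Tnfrsf10b had 6 tested peaks, of which 1 fell with IL4, 9.7 kb from the TSS, from 3.76 ± 0.394 to 2.34 ± 0.396 CPM.

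Tnfrsf11a, the TRAF-binding receptor that drives osteoclast formation, held the family's largest rise with Dex. The peak 9.4 kb upstream (chr1:105771006-105771737) held 1.84, 2.24, 1.82 and 2.47 CPM in WT vehicle libraries, 6.9, 6.28, 6.98 and 5.69 CPM with Dex and 1.57, 1.46, 1.63 and 1.86 CPM with IL4. Dex libraries stood above all others, and vehicle and IL4 libraries overlapped. The log2 fold change was 1.62 ± 0.17 with Dex (adjusted p = 1.53e-12) and -0.36 ± 0.22 with IL4 (adjusted p = 0.215), and in KO cells Dex gave 1.30 ± 0.17. A peak 28.3 kb upstream rose with Dex from 4.06 ± 1.45 to 8.24 ± 2.45 CPM (0.92 ± 0.19), and 1 at 32.2 kb fell from 3.2 ± 1.93 to 0.991 ± 0.515 CPM (-1.59 ± 0.32). The last of these lies nearer to Relch, which the authors' table does not list.

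The Tnfrsf11a promoter peak (chr1:105779949-105781132) moved with each treatment in turn. It held 16.4, 16.7, 15.8 and 14.8 CPM with vehicle, 22.8, 25.5, 21.4 and 19.8 CPM with Dex and 10.6, 12.5, 11.8 and 13.1 CPM with IL4, without overlap. The log2 fold changes were 0.46 ± 0.09 (adjusted p = 5.15e-05) and -0.40 ± 0.10 (adjusted p = 4.24e-04), and IL4 lay below Dex by 0.87 ± 0.09 on the log2 scale. Over the gene's 21 tested peaks, 4 rose and 4 fell with Dex, and 4 rose and 7 fell with IL4. The promoters of 4 of 6 osteoclast markers had a tested peak (Acp5, Ctsk, Dcstamp and Atp6v0d2; Calcr and Ocstamp had none), with a summed level of 12.2 to 16.4 CPM in WT vehicle, 10.5 to 14.1 CPM in WT Dex and 39.2 to 43.9 CPM in WT IL4 libraries. Atp6v0d2 alone went from 2.24 ± 0.456 to 21.7 CPM with IL4. Their part in the Tnfrsf11a values was not tested.

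Tnfrsf14, the receptor of Tnfsf14, lost accessibility with both treatments at a peak 14.7 kb upstream (chr4:154942611-154942959) that the authors' table places in a FANTOM enhancer. WT vehicle libraries held 9.52, 7.04, 5.34 and 4.95 CPM, Dex libraries 2.46, 0.923, 0.985 and 0.98 CPM and IL4 libraries 2.73, 2.87, 1.84 and 1.58 CPM. All treated libraries lay below all vehicle libraries, with log2 fold changes of -2.31 ± 0.23 (adjusted p = 8.16e-11) for Dex and -1.55 ± 0.21 (adjusted p = 4.58e-08) for IL4. Its promoter peak stood at 12.4 ± 1.85, 13.0 ± 1.65 and 10.4 ± 1.76 CPM and passed neither test.

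Tnfrsf9, a costimulatory receptor, was likewise lower with both treatments at the peak around its inner start site, 7.6 kb from the TSS of the table (chr4:150927200-150928361), whose 250 bases with the kappaB and AP-1 letters are printed above. WT vehicle libraries held 5.53, 6.04, 5.77 and 5.87 CPM, Dex libraries 4.58, 2.77, 3.61 and 3.5 CPM and IL4 libraries 3.97, 3.63, 2.24 and 4.47 CPM. The vehicle libraries stood above both treated groups, and the log2 fold changes were -0.63 ± 0.17 and -0.68 ± 0.17. A peak 2.2 kb from the TSS fell with Dex, from 5.43 ± 0.419 to 3.38 ± 1.05 CPM, and held 5.3 ± 1.08 CPM with IL4.

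Tnfrsf4, the receptor of Tnfsf4, rose with IL4 beside its TSS. The peak 0.9 kb downstream (chr4:156014221-156014945) held 2.0, 2.24, 2.24 and 2.16 CPM with vehicle, 1.41, 1.85, 1.97 and 1.91 CPM with Dex and 7.69, 6.38, 8.97 and 8.94 CPM with IL4. IL4 libraries stood apart from all others, with a log2 fold change of 1.87 ± 0.17 (adjusted p = 1.41e-16). A peak 3.1 kb upstream rose from 0.291 ± 0.256 to 1.31 ± 0.463 CPM (2.20 ± 0.46), with 0 to 6 counts in each vehicle library. That peak lies nearer to Sdf4, a gene that the authors' table does not list. The neighbouring gene Tnfrsf18 rose with IL4 at a peak 7.2 kb from its TSS (8.15 ± 1.28 to 10.4 ± 0.966 CPM, 0.35 ± 0.12), a call lost without WT vehicle replicate 3 (0.28) and without WT IL4 replicate 4 (0.30).

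Of the other TRAF-binding receptors, Tnfrsf1b, the receptor for TNF found mostly on leukocytes, had 17 tested peaks, of which 3 rose and 4 fell with IL4 and 1 rose and 2 fell with Dex. It fell with IL4 at its promoter from 28.5 ± 1.46 to 22 ± 0.825 CPM (log2 fold change -0.38 ± 0.08) and at a peak 5.9 kb downstream from 42.5 ± 1.87 to 32.0 ± 1.42 CPM (-0.41 ± 0.07). A FANTOM enhancer 7.7 kb upstream of it fell with Dex from 28.0 ± 3.14 to 20.4 ± 4.7 CPM (-0.44 ± 0.10). Tnfrsf12a, a growth factor-inducible receptor, fell with IL4 at both its peaks (log2 fold changes -0.27 ± 0.10 and -0.39 ± 0.12), the former a call lost with total-count scaling (-0.22), loess offsets (-0.19) and DESeq2, and without any of WT vehicle replicates 3 and 4 and WT IL4 replicates 1 and 4. Tnfrsf13b rose with Dex 10.4 kb upstream, from 5.03 ± 0.479 to 8.48 ± 0.845 CPM (0.77 ± 0.14), and fell with IL4 at 3 other peaks. Tnfrsf17 rose with IL4 6.5 kb upstream, from 0.397 ± 0.101 to 1.48 ± 0.249 CPM (1.90 ± 0.40). Tnfrsf19 rose with IL4 106.2 kb from its TSS, from 0.722 ± 0.21 to 2.51 ± 0.714 CPM (1.74 ± 0.28), and with both treatments 121.2 kb away (0.75 ± 0.16 with Dex and 0.59 ± 0.17 with IL4). None of the 3 Tnfrsf13c peaks passed the test with either treatment by edgeR or DESeq2, and 1 of them was lower with IL4 at an unadjusted p below 0.05.

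The mouse decoy receptors for Tnfsf10, Tnfrsf22 and Tnfrsf23, lie beside Tnfrsf26 on chromosome 7. Tnfrsf22 rose 11.4 kb upstream (chr7:143660791-143661336) from 0.576 ± 0.28 CPM to 1.07 ± 0.499 CPM with Dex and 2.62 ± 0.518 CPM with IL4 (log2 fold changes 1.05 ± 0.35 and 2.17 ± 0.30), and the Dex call was lost with DESeq2 and without any of WT vehicle replicates 1 and 3 and WT Dex replicate 1 (0.86 to 0.88). Tnfrsf23 fell with IL4 at its promoter, from 37.5 ± 1.97 to 28.4 ± 2.83 CPM (-0.40 ± 0.08). Tnfrsf26 rose at its promoter from 17.9 ± 1.37 to 21.8 ± 1.72 CPM with Dex and 23.7 ± 1.27 CPM with IL4 (0.27 ± 0.09 and 0.40 ± 0.09), the Dex call being lost with DESeq2, total-count scaling (0.21) and loess offsets (0.20), and without any of WT vehicle replicates 1, 3 and 4 and WT Dex replicates 2 and 3 (0.23 to 0.27). The exons of these 3 genes are alike, and the treatment of reads that map to more than 1 place is not given in the sources used.

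**Figure D3:**
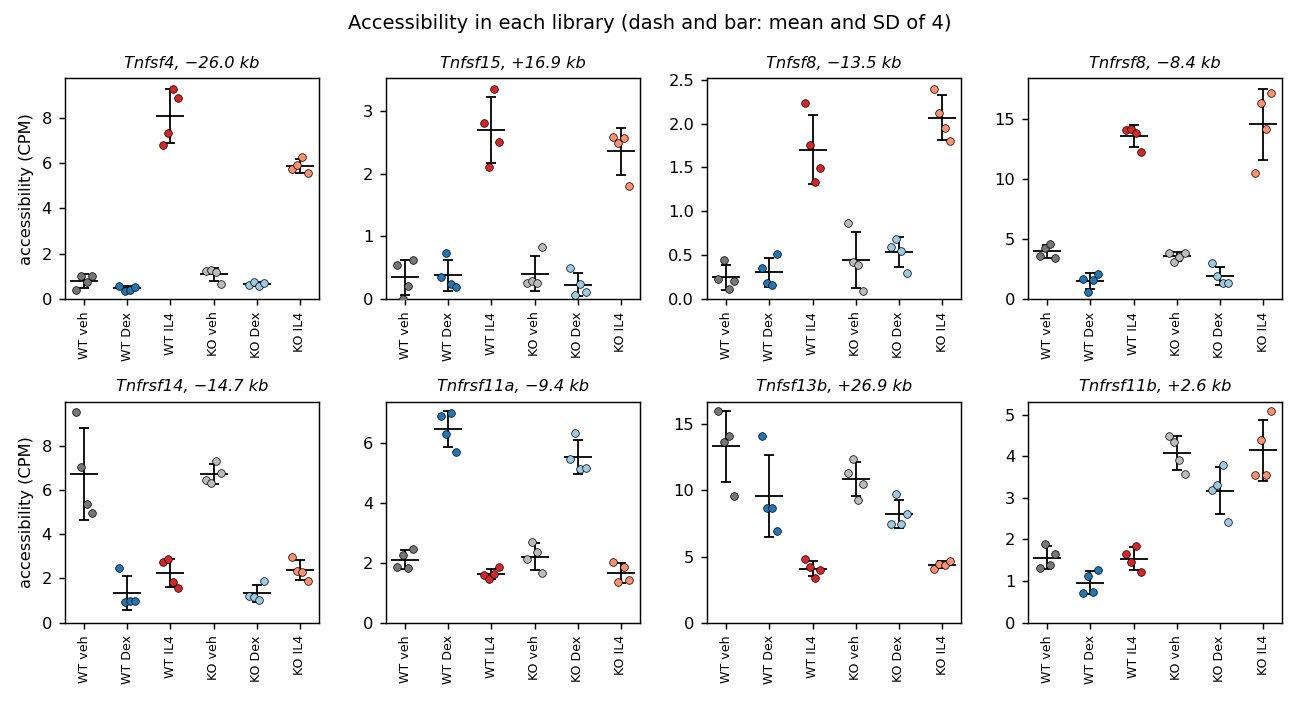
Accessibility in CPM (y axis) in each of the 24 libraries at 8 peaks, by group along the x axis; points are libraries, dashes the group means and bars the SD of 4. The peaks are those with the largest called log2 fold change of their gene: the IL4 libraries are highest at Tnfsf4, Tnfsf15, Tnfsf8 and Tnfrsf8 and lowest at Tnfsf13b, the Dex libraries are highest at Tnfrsf11a, and KO libraries are above WT at Tnfrsf11b.

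Of the 31 tested peaks within 1 kb of a TSS of the family, 5 rose with Dex (Tnfrsf1a, Tnfrsf11a, Tnfrsf26, Tnfsf13 and Tnfsfm13) and these were the calls; 8 of the 31 had an unadjusted p below 0.05. Among all 13871 such peaks 8.87% rose and 3.12% fell. With IL4, 5 rose (Tnfrsf4, Tnfrsf26, Tnfsf8, Tnfsf18 and Tnfsfm13) and 7 fell (Tnfrsf1a, Tnfrsf1b, Tnfrsf11a, Tnfrsf12a, Tnfrsf23, Tnfsf9 and Tnfsf14), 16.1% and 22.6% of the 31. Among all such peaks 6.29% rose and 43.0% fell with IL4, so the family's promoters rose in a larger share and fell in a smaller share than promoters at large. That difference was not tested. Farther out, 10 to 50 kb from a TSS, 43 of the family's 141 peaks rose with IL4 (30.5%) and 20 fell, beside 20.6% risen of all peaks at that distance.

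Per kilobase of peak, the promoters that were most open in WT vehicle cells were those of Tnfsf14 (34.2 ± 2.41 CPM per kb), Tnfrsf23 (27.9 ± 1.48), Tnfrsf1b (27.0 ± 1.37) and Tnfsfm13 (26.2 ± 2.58), and the last 3 overlapped in their libraries. The least open of the 27 were those of Tnfrsf11b (1.64 ± 0.583 CPM per kb), Tnfrsf13c (2.75 ± 0.367), Tnfsf4 (2.85 ± 0.334) and Tnfrsf4 (2.98 ± 0.156). The last 3 overlapped in their libraries, whereas all Tnfrsf11b libraries (0.954 to 2.38) lay below those of Tnfrsf4 (2.76 to 3.09). The Tnfrsf4 peak in this order is the one described above that rose with IL4. It is centred 887 bases downstream of the TSS and covers none of the 250 bases before the start. At Tnfsf4 the rises lay away from the promoter. Tnfsf11, Tnfrsf9 and Tnfrsf13b had no tested peak within 1 kb of their TSS and are not in this order.

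What GRIP1 contributes to the treatment effects was asked by repeating each comparison in KO cells and by testing the difference between the genotypes. In KO cells Dex raised 26 peaks of the family and lowered 23, beside 6.97% and 6.63% of all tested peaks, and IL4 raised 64 and lowered 45, beside 17.0% and 13.9%. Of the 56 peaks called with Dex in WT and the 49 in KO, 35 were called in both (62.5% and 71.4%), and all 35 moved the same way. Of the 111 called with IL4 in WT and the 109 in KO, 85 were shared (76.6% and 78.0%), again all in the same direction. Across the 268 peaks the WT and KO log2 fold changes had a Pearson correlation of 0.80 for Dex and 0.89 for IL4, beside 0.70 and 0.85 across all tested peaks. These points are peaks measured in the same libraries and are not independent.

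No peak of the family passed the test of a difference in the Dex or IL4 effect between genotypes, beside 0% and 0.00231% of all tested peaks (for IL4 7.69e-04% with a higher and 0.00154% with a lower effect in KO), with edgeR (smallest adjusted p = 1.000 for each) or DESeq2. At an unadjusted p below 0.05 edgeR gave 12 of 268 peaks (4.48%) for Dex and 11 (4.10%) for IL4, beside 3.46% and 4.10% of all tested peaks. In simulated data for Dex against vehicle in WT the same test called 37.3% of 67 peaks changed 1.5-fold, 64.2% of 67 changed 2-fold and 97% of 66 changed 3-fold among 128656. The changed peaks were drawn from those above a minimum mean count, and were far fewer than the peaks called with Dex in the data. The rates therefore need not hold for low-count peaks or for the adjusted p of the real comparisons. The interaction itself was not simulated, and a p that misses the threshold does not show that the genotypes responded alike. The Tnfsf4 peak 26.0 kb upstream rose with IL4 by a log2 fold change of 3.38 ± 0.21 in WT and 2.43 ± 0.21 in KO. That difference was not called either.

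**Figure D4:**
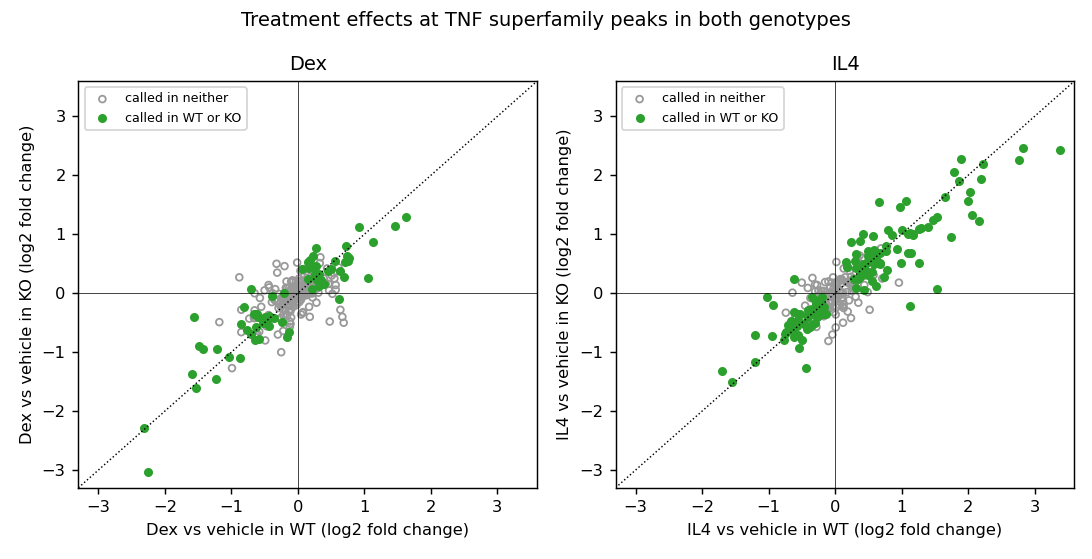
Log2 fold change against vehicle in WT (x axis) and KO (y axis) for the 268 tested peaks, for Dex (left) and IL4 (right); filled points were called in WT or KO and the dotted line marks equal effects. The points lie along the line in both panels (Pearson correlation 0.80 for Dex and 0.89 for IL4, across peaks).

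Without regard to treatment, accessibility differed between KO and WT at 1 gene of the family, Tnfrsf11b, which encodes the secreted decoy receptor that keeps Tnfsf11 from Tnfrsf11a. In vehicle, 3 of the family's 268 peaks were higher in KO and 0 lower, beside 0.304% and 0.312% of all tested peaks. With Dex 5 were higher and 0 lower, beside 0.436% and 0.517%, and with IL4 6 were higher and 0 lower, beside 0.473% and 0.368%. All of these are Tnfrsf11b peaks. Over the other 259 peaks edgeR and DESeq2 called 0 in each of the 3 comparisons, and at an unadjusted p below 0.05 edgeR gave 5 higher and 12 lower in vehicle, 14 and 12 with Dex and 11 and 8 with IL4.

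A peak 2.6 kb downstream of the Tnfrsf11b TSS (chr15:54275665-54276037) held 1.31, 1.9, 1.39 and 1.65 CPM in WT vehicle and 4.48, 4.33, 3.92 and 3.57 CPM in KO vehicle libraries. With Dex it held 0.704, 1.11, 0.739 and 1.26 CPM in WT and 3.18, 3.3, 3.78 and 2.43 CPM in KO, and with IL4 1.65, 1.46, 1.84 and 1.21 CPM in WT and 3.55, 4.38, 3.54 and 5.08 CPM in KO. Every KO library lay above every WT library at each treatment and across treatments. The log2 fold changes of KO against WT were 1.40 ± 0.21 in vehicle (adjusted p = 2.53e-06), 1.68 ± 0.22 with Dex (adjusted p = 3.16e-08) and 1.44 ± 0.20 with IL4 (adjusted p = 9.2e-08). At the promoter, WT libraries held 1.06 ± 0.376, 1.12 ± 0.0542 and 1.09 ± 0.235 CPM with vehicle, Dex and IL4, and KO libraries 1.97 ± 0.174, 1.94 ± 0.544 and 2.21 ± 0.218 CPM. The promoter passed the test with IL4 (log2 fold change 1.00 ± 0.24, adjusted p = 0.0162), a call lost with DESeq2 (0.98) and without any of replicates 2 and 4 of WT IL4 and of KO IL4 (0.86 to 1.03).

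The other called peaks of Tnfrsf11b lie up to 164.0 kb beyond its start. At 157.8 kb (chr15:54120377-54121066) WT vehicle libraries held 3.15, 3.02, 3.1 and 3.3 CPM and KO vehicle libraries 5.84, 6.74, 7.06 and 6.05 CPM, a log2 fold change of 1.03 ± 0.17. At 164.0 kb (chr15:54114157-54114736) WT vehicle libraries held 2.53, 2.24, 3.42 and 2.68 CPM and KO vehicle libraries 7.33, 6.81, 4.19 and 5.5 CPM, a log2 fold change of 1.15 ± 0.17. Neither pair of groups overlapped. Peaks called under part of the treatments lay 37.7 kb downstream (log2 fold change 1.48 with Dex and 1.55 with IL4), 21.1 kb downstream (1.60 with IL4) and 16.2 kb upstream (1.57 with Dex). The Dex calls were lost without WT Dex replicate 3 or KO Dex replicate 4 at the first of them (1.22 and 1.27) and without WT Dex replicate 4 or KO Dex replicate 2 at the last (1.15 and 1.39). The call 21.1 kb downstream was lost with DESeq2, with loess offsets, with no low-count filter, and without any of the 4 WT IL4 libraries or KO IL4 replicates 1 and 2 (1.28 to 1.76).

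With IL4 the peak 164.0 kb away held 3.39, 3.45, 3.98 and 3.82 CPM in WT and 11, 12.5, 12.1 and 12.7 CPM in KO (1.73 ± 0.13). In KO cells IL4 raised it from 5.96 ± 1.41 to 12.1 ± 0.731 CPM (log2 fold change 1.00 ± 0.13, adjusted p = 4.07e-10), and in WT the same comparison gave 0.42 ± 0.18 (adjusted p = 0.0593). The difference between these effects was 0.58 ± 0.22, with an unadjusted p of 0.0114 and an adjusted p of 1.000. None of the 9 Tnfrsf11b peaks was called with Dex or IL4 against vehicle in WT by edgeR or DESeq2. At an unadjusted p below 0.05, 3 were lower with Dex and 1 was higher with IL4. Compared directly in WT, 5 of the 9 were called as higher with IL4 than with Dex by edgeR, beside 23.4% of all tested peaks. The median log2 fold change of the 9 there was 0.87.

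Peaks of other genes around Tnfrsf11b differed between the genotypes too. Within 1 Mb of its TSS, 81 tested peaks belong to other genes or to none, and in KO 5 of them were higher and 1 lower in vehicle (7.41% called, beside 0.616% of all tested peaks), 6 and 3 with Dex (11.1%, beside 0.953%) and 7 and 4 with IL4 (13.6%, beside 0.841%). Their log2 fold changes ran from -1.69 to 2.27 in vehicle, from -1.85 to 2.05 with Dex and from -1.92 to 3.77 with IL4. From 1 to 2 Mb away, 4 of 84 peaks were called in vehicle (4.76%), 2 in each direction. Peaks near Samd12, 206 to 634 kb from the Tnfrsf11b start, had 2 of 12 called as higher under each treatment. Nov, 458 to 502 kb away on the other side, had 2 of 4 called as higher with Dex and with IL4, and 0 in vehicle. Its peak at 458.0 kb had a log2 fold change of 3.77 with IL4. From -554.4 to 467.2 kb along the chromosome every called neighbour was higher in KO. The nearest called as lower lay at -748.8 kb, and the more distant Ext1 peaks were called in both directions. Markers of stromal cells, which make much Tnfrsf11b in marrow, had promoter peaks for 3 of 9 genes (Pdgfrb, Cxcl12 and Thy1; Col1a1, Col1a2, Col3a1, Pdgfra, Lum and Dcn had none), with a summed level of 6.29 to 11.3 CPM in KO and 6.46 to 11.6 CPM in WT libraries. This list was chosen after the data were seen. The part of the neighbouring peaks in the Tnfrsf11b result was not tested.

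**Figure D5:**
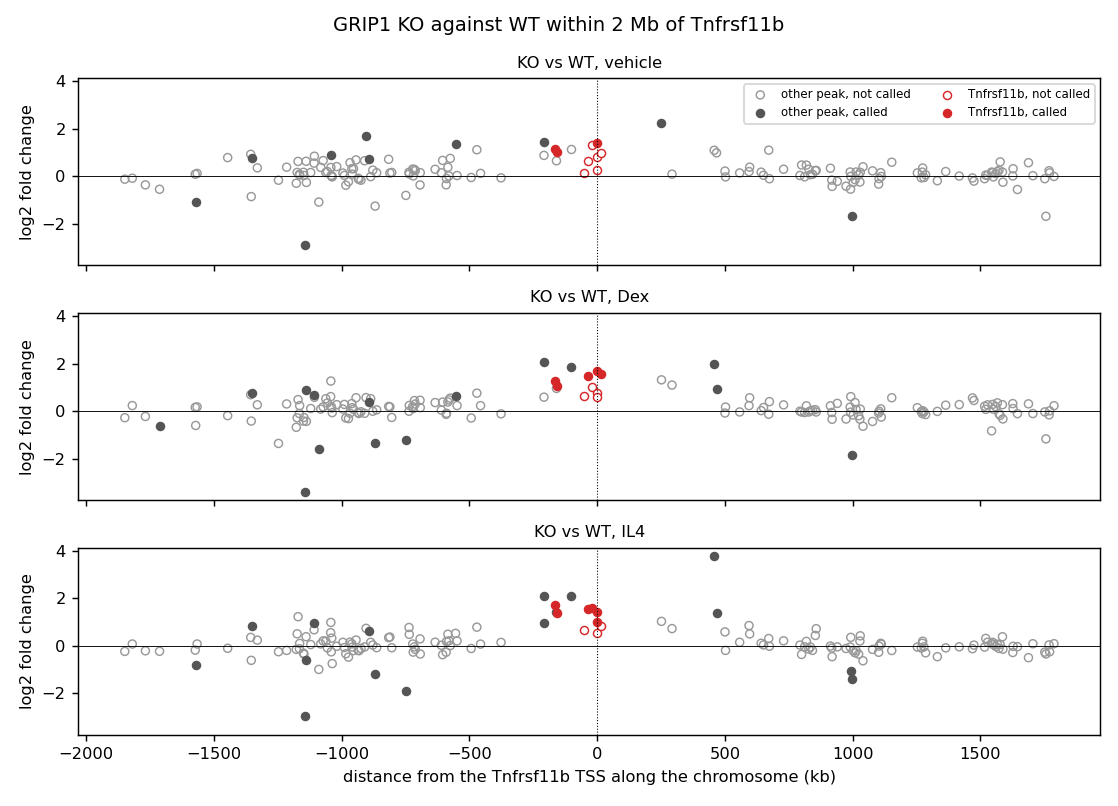
Log2 fold change of KO against WT (y axis) for the tested peaks within 2 Mb of the Tnfrsf11b TSS, by distance along the chromosome in kb (x axis), in vehicle, Dex and IL4 (top to bottom). Tnfrsf11b peaks are red and other peaks grey, filled where called. The called red points (3, 5 and 6) are all above 0, as are the called grey points from -554.4 to 467.2 kb. Farther out, called grey points lie on either side of 0.

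The rest of the pathway was described from 2 lists. TNF superfamily genes that carry other symbols (15 genes, 14 of them with a tested peak and 69 peaks in all) had 4 peaks that rose and 4 that fell with Dex in WT, and 14 that rose and 13 that fell with IL4, with medians of -0.07 and 0.00. These are 11.6% and 39.1% of the 69 peaks, beside 16.6% and 35.4% of all tested peaks. The peak at the promoter of Tnf itself fell with both, by 0.37 ± 0.10 on the log2 scale with Dex and 0.42 ± 0.10 with IL4, from 29.8 CPM. The peak at Fas, a death receptor, that lies 82.5 kb from the TSS rose with IL4 by a log2 fold change of 2.33 ± 0.26, and a peak at its ligand gene Fasl by 1.33 ± 0.16. Signalling genes below the receptors (34 genes such as Traf1, Ripk1, Tnfaip3 and Nfkb1, 31 of them with 338 tested peaks) had 36 peaks that rose and 43 that fell with Dex, and 65 that rose and 71 that fell with IL4, which is 23.4% and 40.2% of them, beside the same 16.6% and 35.4% of all tested peaks. Between KO and WT, edgeR called 0 of the 69 peaks of the former list under any treatment, with 6, 4 and 10 at an unadjusted p below 0.05 in vehicle, Dex and IL4. Of the 338 peaks of the latter, 2 were called with Dex (0.592%, beside 0.953% of all tested peaks) and 0 in vehicle or with IL4 (beside 0.616% and 0.841%), with 23, 30 and 20 at an unadjusted p below 0.05. DESeq2 calls were compared for the family's peaks only.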

How the data were processed

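Chromatin accessibility was measured by paired-end ATAC-seq in 24 libraries, 4 in each of 6 groups. The authors deposited a matrix of read counts per peak for all libraries, on build mm10. Tools listed in the submitters' processing notes are edgeR, featureCounts, MACS2, Bowtie2, SAMtools and fastp, with no role or version. The authors also deposited a table of comparisons with log2 fold changes, p-values and an F score for each comparison, which gave the gene of a peak, its distance to the TSS and its FANTOM flag. Its fold changes had a slope of 1.00 on those computed here in all 9 comparisons, and it called 46 of 179 family peaks with Dex in WT, beside 43 here.

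The members and gene lists were chosen with earlier results of these data known. Counts were fitted with edgeR 4.0.16 (R 4.3.3) in 1 model of the 6 groups, with filterByExpr (130103 peaks kept, 14308 removed), TMM factors and robust quasi-likelihood tests, and p-values were adjusted over all tested peaks. Each SE was taken as the absolute log2 fold change over the root of the F statistic, and levels are TMM-scaled CPM, as mean ± SD. The median count was 34 per peak and library. The fit was tested on simulated data. The peaks named are each gene's tested peak nearest the TSS within 1 kb, the 6 largest called rises and falls per treatment comparison, up to 6 called peaks with the smallest p per genotype comparison, and for a gene not yet named its called peak with the smallest p. Alternatives were other scalings, DESeq2 1.42.0, no filter, the table's peaks alone, a threshold of 0.01, peaks within 10 kb, a replicate block and leaving out each library, and, chosen after seeing the data, leaving out peaks with a nearer unlisted gene. No genome was used here, so distal peaks have no sequence.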

Additional observations from a re-analysis of the deposited data

Results flagged for a closer look

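Among 474 groups of 4 libraries at the named peaks, 33 (6.96%) had 1 library whose gap to its nearest neighbour exceeded Dixon's critical share of the group's range. Chance flags about 1 in 20 groups. Values are CPM, and no explanation was tested.

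In WT vehicle, replicate 1 was high 7.7 kb upstream of Tnfrsf1b (32.7) and low 90.1 kb upstream of Tnfsf11 (0.999). Replicate 2 was low 16.2 kb upstream of Tnfrsf11b (0.335) and 2.2 kb downstream of the Tnfrsf9 TSS (4.81). Replicate 4 was low 5.9 kb downstream at Tnfrsf1b (39.7) and high at the Tnfrsf8 promoter (1.96).

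In WT Dex, replicate 1 was high 14.7 kb upstream of Tnfrsf14 (2.46) and at the promoters of Tnfsf10 (14.1) and Tnfsf13b (27.3). Replicate 2, the shallowest library, was high at the Tnfrsf1a promoter (30.3) and 121.2 kb from the Tnfrsf19 TSS (8.12), and low 13.8 kb from that of Tnfrsf21 (0.923). Replicate 3 was high 14.1 kb upstream of Tnfsfm13 (0.821).

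In WT IL4, replicate 1 was high 23.1 kb from the Tnfsf8 TSS (1.65), replicate 2 was low 38.4 kb upstream of Tnfsf8 (17), and replicate 3 was low 19.8 kb from the Tnfrsf21 TSS (4.08). Replicate 4 was low at the Tnfrsf11b promoter (0.745) and 8.4 kb upstream of Tnfrsf8 (12.3), and high 2.8 kb from the Tnfrsf26 TSS (11.6).

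In KO vehicle, replicate 3 was high at the Tnfrsf8 promoter (1.83), and replicate 4 was high 16.9 kb from the Tnfsf15 TSS (0.825) and low 26.0 kb upstream of Tnfsf4 (0.642). In KO Dex, replicate 1 was low at the promoters of Tnfrsf23 (35.8) and Tnfsf13b (19), replicate 2 was high 2.4 kb upstream of Tnfsf18 (2.06), replicate 3 was high at the Tnfsf8 promoter (4.17) and replicate 4 was high 100.2 kb from the Tnfsf18 TSS (3.26).

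In KO IL4, replicate 1 was low 5.9 kb downstream at Tnfrsf1b (29.3) and at the Tnfrsf26 promoter (17.7). Replicate 3 was low 43.1 kb from the Tnfrsf11a TSS (0.973) and at the Tnfsf14 promoter (16.5), and replicate 4 was high 46.7 kb from the Tnfrsf11a TSS (0.548) and low 16.9 kb from that of Tnfsf15 (1.8). No library was named more than 3 times.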

How the results depend on the processing

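Counts below are peaks of the family that rose and fell, or were higher and lower. None of the named changes turned sign under any alternative run, but the balance of rises and falls did. Within 10 kb of a TSS it turned for Dex and IL4 in WT, IL4 in KO and IL4 against Dex. For Dex in WT it also turned with no low-count filter (28 and 25) and without WT Dex replicate 4 (27 and 25). For Dex in KO it turned with loess offsets (23 and 27) and total-count scaling, and was even with the replicate block (27 and 27) and without KO Dex replicate 4 (19 and 19). At an adjusted p below 0.01 fewer peaks passed: 16 rose with Dex in WT and 17 in KO, 26 fell with IL4 in KO, and 38 were lower with IL4 than with Dex in WT. Keeping peaks within 10 kb of a TSS left 11 and 10 with Dex and 19 and 21 with IL4 in WT, 13 and 9 with Dex and 20 and 21 with IL4 in KO, 25 and 29 between IL4 and Dex, and 1, 1 and 2 higher in KO in vehicle, Dex and IL4. Scaling by total counts gave 40 peaks lower with IL4 than with Dex, and moved the median of all peaks there from -0.02 to 0.09. It gave 22 and 30 with Dex in KO, beside 6921 and 10833 of all tested peaks.

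Leaving out 1 library at a time gave 19 to 27 risen and 22 to 36 fallen peaks with Dex in WT, 65 to 68 and 37 to 43 with IL4 in WT, 19 to 27 and 18 to 23 with Dex in KO, 53 to 62 and 34 to 46 with IL4 in KO, and 73 to 88 and 42 to 60 between IL4 and Dex. Between KO and WT it gave 3 to 3 in vehicle, 4 to 6 with Dex and 4 to 6 with IL4, and 0 to 0 for both interactions. DESeq2 called 20 and 24 with Dex and 63 and 35 with IL4 in WT, and 3, 5 and 4 between KO and WT. Of 109 named calls, 14 were lost under some alternative, 13 of them without a single library.

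Replicate numbers are shared across groups, but the labels do not say that they pair samples, so the main fit took no pairs. Within WT, same-numbered libraries deviated together (correlation 0.0511 to 0.202) more than libraries with different numbers (-0.0857 to 0.0166). Within KO the same held between Dex and IL4 (0.0433 to 0.145 and -0.111 to 0.0398) and between vehicle and IL4 (0.0443 to 0.107 and -0.0875 to 0.0386). Between vehicle and Dex in KO the ranges overlapped (0.00337 to 0.118 and -0.123 to 0.0575). Across genotypes the ranges were -0.0673 to 0.0268 and -0.0907 to 0.0753. Libraries may thus be paired within a genotype, whereas the block used here gives a number the same effect in both genotypes. With a replicate block 29 and 31 peaks changed with Dex and 70 and 44 with IL4 in WT, 27 and 27 and 66 and 48 in KO, 86 and 60 between IL4 and Dex, 3, 5 and 6 between KO and WT, and 0 in both interactions. No named call was lost under it.

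At the shallowest library 1 count was worth 0.185 CPM, which limits peaks below about that level.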
